A study of Homo sapiens with 23 samples.

Results

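YY1 and OCT4 occupancy was compared in untreated SCi-NCCITs. The comparison rests on 3 ChIP-seq peak lists from cells grown without doxycycline, namely YY1 replicate 1, YY1 replicate 2 and a single OCT4 library. They hold 56370, 76098 and 50775 peaks, or 183243 of the 1190670 peaks in the 11 peak lists of the series. Merging peaks that shared at least 1 bp gave 120013 sites. Gene expression came from 3 RNA-seq libraries of the same untreated cells.

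NCCIT is a pluripotent embryonal carcinoma cell line derived from a germ cell tumour. The SCi-NCCITs are stably selected NCCITs that carry a piggyBac cassette with tetracycline-inducible dCas9-KRAB, a catalytically dead Cas9 fused to a repressor domain. They also constitutively express sgRNAs directed at SVAs, a family of retrotransposons of great apes. According to the paper, these sgRNAs also target the LTR5Hs family of transposable elements. The series asked what happens when doxycycline switches this repressor on. Every library used below carries the cassette and the sgRNAs and received no doxycycline, so that the repressor was not induced. Only for the second YY1 library does the label give a replicate number, and nothing in the labels states that the YY1 libraries came from separate cultures. The spread between them may therefore be technical, and with 1 OCT4 library the OCT4 values have no replicate error.

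YY1 is a ubiquitous zinc finger factor that binds promoters and enhancers close to transcription start sites and can dimerise to bring them together. Its recognition sequence contains an ATGG core and is common at promoters of housekeeping genes, among them genes for ribosomal and mitochondrial proteins. OCT4, encoded by POU5F1, is a POU domain factor of pluripotent cells. It binds the octamer, often next to SOX2 on a composite OCT-SOX element, and much of its binding lies in enhancers far from promoters.

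The RNA libraries carried the expression of a pluripotent line. All 9 pluripotency markers examined, including POU5F1, SOX2, NANOG and LIN28A, had a mean between 35.2 and 348 TPM, the length-normalised share of transcripts. Of 15 markers of other cell types, 11 were below 1 TPM. The exceptions were HAND1, a mesodermal factor, at 104, 126 and 143 TPM in the 3 libraries, and the fibroblast genes COL1A1, COL1A2 and DCN at means of 4.78, 1.17 and 1.71 TPM.

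The sequences below show what the motifs look like at strong sites that held one. Many of the strongest sites, named further on, had no exact match to the motifs near the summit. The sequences were read from hg19 at the motif nearest to the summit of the peak, on the strand of the motif, and the motif is in capitals. The first group holds the YY1 motif at the promoters of CCDC174 and ZNF615, which carried YY1 without OCT4, and at that of CHFR, where both factors had a peak.
CCDC174, chr3:14693167-14693227, plus strand: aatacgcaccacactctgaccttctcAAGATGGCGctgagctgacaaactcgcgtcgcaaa
ZNF615, chr19:52511507-52511567, minus strand: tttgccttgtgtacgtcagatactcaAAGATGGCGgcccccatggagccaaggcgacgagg
CHFR, chr12:133464366-133464426, minus strand: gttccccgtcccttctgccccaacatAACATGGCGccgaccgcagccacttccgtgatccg

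The second group holds the core of the OCT-SOX element at the strongest OCT4 sites near the pluripotency genes NANOG, SOX2 and DPPA5, at the GIMAP5 site, and at a co-occupied site of DUSP12. At GIMAP5 the same letters run on into the octamer, so that both motifs overlap there.
NANOG, chr12:7941855-7941915, minus strand: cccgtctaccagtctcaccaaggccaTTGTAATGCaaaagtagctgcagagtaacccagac
SOX2, chr3:181433902-181433962, plus strand: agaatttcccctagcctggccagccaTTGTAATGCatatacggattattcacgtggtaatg
DPPA5, chr6:74059257-74059317, minus strand: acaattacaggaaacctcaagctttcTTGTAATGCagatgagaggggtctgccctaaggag
GIMAP5, chr7:150433153-150433213, plus strand: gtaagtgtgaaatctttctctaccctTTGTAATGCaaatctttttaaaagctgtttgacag
DUSP12, chr1:161720238-161720298, plus strand: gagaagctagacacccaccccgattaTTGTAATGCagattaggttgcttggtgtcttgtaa

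The third group comes from an intronic co-occupied site on chromosome 10, 1944 bp from the nearest annotated start site, that of the miRNA gene AL355490.2. It held a YY1 motif 48 bp from the YY1 summit and an octamer 34 bp from the OCT4 summit, and the 2 stretches below overlap.
chr10:99239738-99239798, plus strand, YY1 motif: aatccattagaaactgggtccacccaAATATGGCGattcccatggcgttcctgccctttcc
chr10:99239702-99239761, plus strand, octamer: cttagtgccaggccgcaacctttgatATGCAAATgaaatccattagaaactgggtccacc

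Whole lists were compared first. Median peak width was 513 bp in YY1 replicate 1, 374 bp in YY1 replicate 2 and 391 bp for OCT4, so that the OCT4 value fell between the YY1 replicates. Median fold enrichment, the signal at the summit over the background estimated by the authors' peak caller, was 5.32, 5.38 and 5.73, so that OCT4 lay above both YY1 values. A peak counts as a promoter peak here when it lies within 1000 bp of an annotated transcription start site (TSS).
Promoter peaks made up 33.6%, 25.5% and 24.0% of the lists in the same order, against 7.50% of the genome. The Wilson 95% intervals were 33.2 to 34.0%, 25.2 to 25.8% and 23.7 to 24.4%, and they cover counting error only. The YY1 replicates differed more from each other than YY1 replicate 2 did from OCT4. With 2 libraries against 1, an exact two-sided permutation test cannot give a p below 0.333, whatever the values, so that it says nothing about whether the factors differ. It gave 0.667 for the promoter share, 1 for width and 0.333 for fold enrichment. Read depth is unknown, because peak lists hold no reads, and both the number and the width of peaks can depend on it.

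The strong end of the lists differed. The strongest YY1 peaks sat at promoters and the strongest OCT4 peaks did not. Among the 1000 peaks of highest fold enrichment, 86.2% of YY1 replicate 1, 81.1% of YY1 replicate 2 and 14.5% of OCT4 peaks lay at promoters. Both YY1 values stood far above that of OCT4, and the replicates were close together.
Among the first 5000 peaks the shares were 62.1%, 56.1% and 12.8%, and among the first 10000 they were 51.6%, 44.3% and 12.7%. From there the trends ran in opposite directions. Over the first 50000 peaks the YY1 shares had fallen to 33.7% and 26.8%, while that of OCT4 had risen to 23.8%. The weak OCT4 peaks were thus more often at promoters than the strong ones, and the weak YY1 peaks less often.

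**Figure D1:**
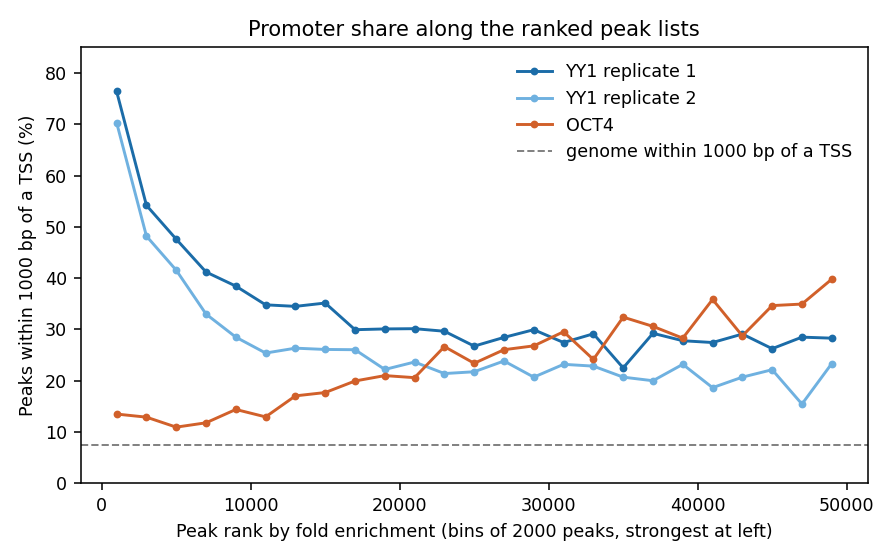
Percent of peaks within 1000 bp of a TSS (y axis) in bins of 2000 peaks ranked by fold enrichment (x axis, strongest at left) for the 2 YY1 libraries and the OCT4 library, with the share of the genome (7.50%) as a dashed line. The YY1 curves start high and fall, and the OCT4 curve starts low, rises and crosses them.

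Fold enrichment also reached higher for YY1. The highest values were 175 and 160 in the YY1 libraries and 119 for OCT4. Peaks above 20-fold numbered 4180 (7.42%) and 4824 (6.34%) for YY1 and 2544 (5.01%) for OCT4. The strongest peaks were also wide, with a median over the first 1000 of 1758.5 and 1261 bp for YY1 and 899.5 bp for OCT4.
Chromosome 19, which is rich in genes, held 3.77% and 2.71% of YY1 peaks and 1.62% of OCT4 peaks, against 1.95% of the genome. Summits lay in exons for 26.2% and 15.1% of YY1 peaks and 12.4% of OCT4 peaks, and in introns for 44.5%, 51.9% and 54.6%. In all 3 lists few summits were over 100 kb from a TSS, namely 2.61%, 3.46% and 3.91%.

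The YY1 libraries shared most of their strong peaks. Of the YY1 replicate 1 peaks, 71.1% overlapped a replicate 2 peak, and 55.5% the other way, since the second list is longer. Among the 1000 strongest peaks these shares were 99.7% and 100%. Of the YY1 peaks, 23.8% and 23.6% overlapped an OCT4 peak, where OCT4 peaks covered 0.812% of the genome, and 28.1% and 35.3% of OCT4 peaks overlapped YY1 replicates 1 and 2.
Overlap was higher at both strong ends. Of the 1000 strongest YY1 peaks, 64.7% and 63.2% met an OCT4 peak. Of the 1000 strongest OCT4 peaks, 37.7% met a peak of YY1 replicate 1 and 57.7% one of replicate 2. The strongest peaks were wider than their lists as a whole, and those of YY1 were mostly at promoters. YY1 promoter peaks overlapped OCT4 more often (35.4% and 37.3%) than YY1 distal peaks did (17.9% and 19.0%). The parts of width and position in the overlap were not tested.

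Sites were then sorted by the factors they held. YY1 was taken as present when both replicates had a peak, which was so at 39593 sites, and as absent when neither had. There were 27640 sites with YY1 and no OCT4 (YY1-only), 11953 co-occupied sites with both factors, and 30921 sites with OCT4 and no YY1 peak (OCT4-only). A further 6560 OCT4 sites had YY1 in 1 replicate, and 42939 sites had YY1 in 1 replicate without OCT4. These are kept out of the classes below.
Co-occupied sites made up 30.2% of the YY1 sites and 24.2% of the OCT4 sites. The count depended on how sharing was defined, since 5868 sites had an OCT4 summit within 200 bp of a YY1 summit in both replicates, and 7020 co-occupied sites were left with peaks at a −log10 q of at least 5.

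Co-occupied sites were at promoters more often than sites of either factor alone. Promoter sites were 26.3% of the YY1-only class (7280 sites), 51.2% of the co-occupied class (6123 sites) and 12.6% of the OCT4-only class (3884 sites). The other 5830 co-occupied sites (48.8%) were distal, and there the OCT4 summit lay within 200 bp of that of YY1 more often than at promoters (61.4% and 62.0% for the YY1 replicates against 47.0% and 49.8%). The distal ones were narrower, with a median of 915 bp against 1297 bp, which limits how far apart summits can lie. Seen from each factor, 45.7% of YY1 promoter sites and 22.3% of YY1 distal sites also held OCT4. Of the OCT4 sites, 53.2% at promoters and 15.4% at distal positions also held YY1. Co-occupied sites were merged from more peaks and were wider, with a median of 1083 bp against 600 bp for YY1-only and 364 bp for OCT4-only sites, and a wide site has more room to touch a TSS or another peak.

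Strength was related to co-occupancy in a different way for each factor. Among YY1 promoter sites split into quintiles by fold enrichment (the lower of the 2 replicates), 59.6% of the strongest quintile were co-occupied, falling to 37.5% and 38.5% in the last 2 quintiles. Among OCT4 promoter sites the strongest quintile had the lowest share, 45.4%, and the other quintiles lay between 51.8% and 59.5%. At distal sites the strongest quintile was the most co-occupied for both, at 30.3% for YY1 and 22.9% for OCT4.
The weakest distal OCT4 quintile was co-occupied at 12.5%. The strength of one factor said little about that of the other. Across the 11953 co-occupied sites the Spearman correlation of fold enrichment with OCT4 was -0.06 for YY1 replicate 1 and 0.04 for replicate 2, while the YY1 replicates correlated at 0.73 across their 39593 shared sites. These points share libraries and local background, and the values are descriptions.

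**Figure D2:**
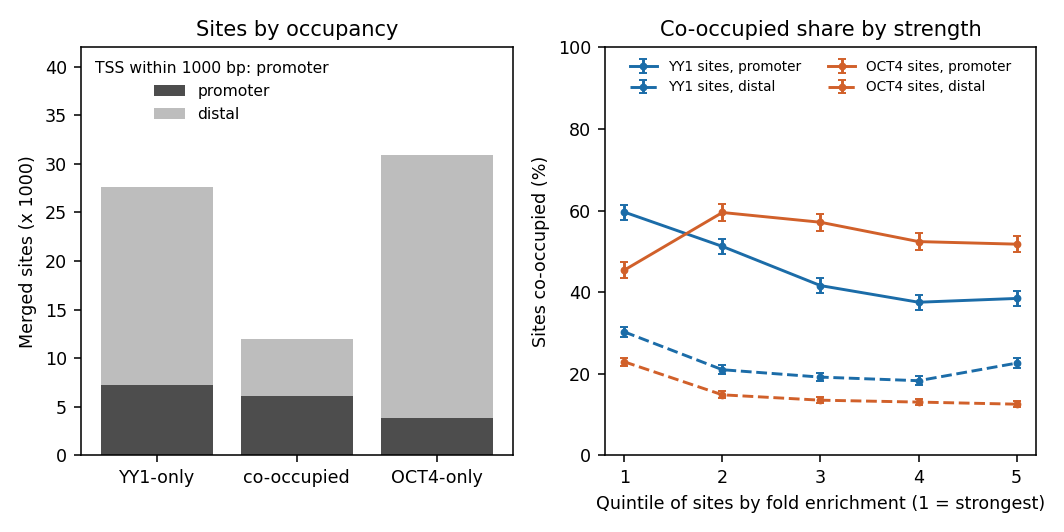
Left, the number of merged sites in each occupancy class (y axis, in units of 1000), split into promoter sites (TSS within 1000 bp) and distal sites. Right, the percent of sites co-occupied (y axis) by quintile of fold enrichment (x axis, 1 is strongest) for YY1 and OCT4 sites at promoters (solid lines) and distal positions (dashed lines), with Wilson 95% intervals as error bars. From 37.5% to 59.6% of sites are co-occupied in the promoter quintiles and at most 30.3% in the distal quintiles.

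Within co-occupied sites the summits of the factors were usually apart. For comparison, the median distance between the summits of the YY1 replicates was 43 bp, with 54.7% within 50 bp. That value is over all 39593 sites with YY1 in both replicates. Most of these held no OCT4 and were narrower, and co-occupied sites alone were not measured in this way. At co-occupied sites the median distance from YY1 to OCT4 was 178 bp for replicate 1 and 168 bp for replicate 2, and 17.7% and 19.0% of summits were within 50 bp. The summits lay closer together at distal sites (141 and 136.5 bp) than at promoters (218 and 202 bp). Co-occupied distal sites were also narrower, with a median width of 915 bp against 1297 bp at promoters. A narrower site leaves less room between summits, and the part of width in this contrast was not tested. At promoters 20.5% and 20.3% of the YY1 and OCT4 summits were over 500 bp apart.

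**Figure D3:**
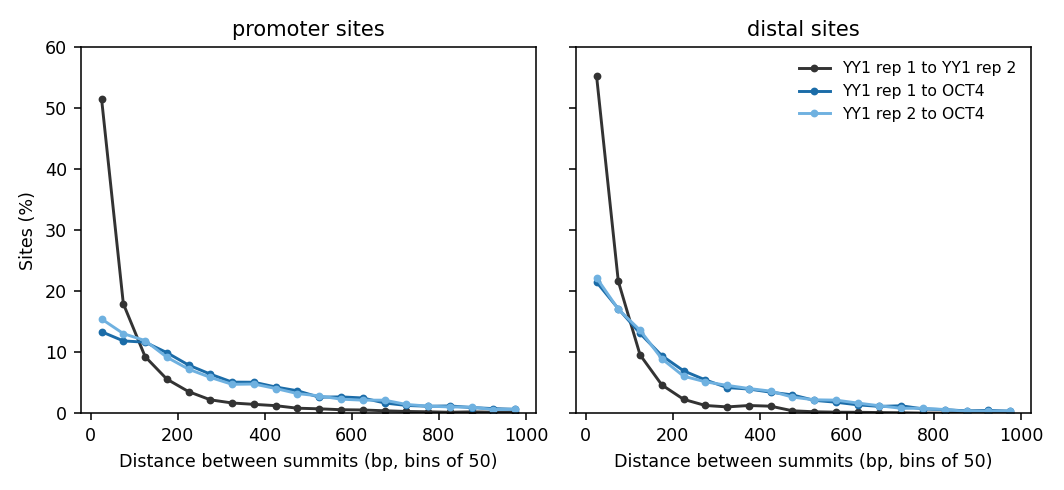
Percent of sites (y axis) by distance between summits in bins of 50 bp (x axis), at promoter sites (left) and distal sites (right). The YY1 replicates (dark line, all sites with YY1 in both replicates) peak in the first bin. The 2 lines from YY1 to OCT4 (co-occupied sites only) spread over a wide range of distances.

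Sequence motifs were counted in windows of 201 bp centred on the summit, on both strands, as exact matches. They were the YY1 motif AANATGGCG, the octamer ATGCAAAT, the OCT-SOX core TTGTNATGC, which can overlap an octamer, and GGGCGGGGC, the GC box bound by SP and KLF factors, as a promoter comparison. All windows of that length tiled along the genome held them in 0.402%, 2.04%, 0.523% and 0.159% of cases, and windows centred on protein-coding TSSs in 3.23%, 0.713%, 0.320% and 9.16%. A match is only a match of letters, and a window without one says nothing about binding.

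Each factor's own motif marked its own sites. The YY1 motif was in 13.1% of YY1-only windows and in 0.0778% of OCT4-only windows, the second being 24 of 30867. The octamer was in 12.4% of OCT4-only and 1.41% of YY1-only windows. The OCT-SOX core was in 10.5% of OCT4-only and 0.359% of YY1-only windows.
The motif shares rose with the strength of the peak. Among the 1000 strongest peaks, 49.2% of YY1 replicate 1 and 43.4% of YY1 replicate 2 windows held the YY1 motif, and 31.1% of OCT4 windows held the OCT-SOX core. Over whole lists these shares were 8.70%, 9.49% and 7.65%. The octamer alone changed little with rank, from 12.8% of the 1000 strongest OCT4 windows to 10.2% of all.
The motifs lay close to the summits. Of the 5000 strongest peaks, 1305 of YY1 replicate 1 and 1303 of replicate 2 held the YY1 motif, at a median distance of 8 and 11 bp. In the OCT4 library 728 of the 5000 held the octamer, at a median of 18.5 bp.

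Co-occupied sites differed between promoters and distal positions. At co-occupied promoters the YY1 motif was about as common at YY1 summits (13.3%, interval 12.5 to 14.2%) as at YY1-only promoters (14.6%, 13.8 to 15.4%). The octamer was in 2.52% of windows at the OCT4 summits there, against 8.01% at OCT4-only promoters, and the OCT-SOX core in 1.44% against 6.72%. The GC box was in 7.68% of those OCT4 windows.
Base composition moved with these shares. The OCT4 windows had a median of 18 CpG dinucleotides at co-occupied promoters and 3 at OCT4-only promoters, with a GC content of 67.2% and 45.3%. The part of base composition in the motif shares was not tested.
At co-occupied distal sites the motifs of both factors were less common than at distal sites of 1 factor. YY1 windows there held the YY1 motif in 4.97% of cases, against 12.6% at YY1-only distal sites. OCT4 windows held the octamer in 9.71% and the OCT-SOX core in 3.31%, against 13.0% and 11.1% at OCT4-only distal sites. Even windows centred on the YY1 summit held an octamer in 6.17% of co-occupied distal sites, compared with 1.70% of YY1-only distal sites. Windows holding both a YY1 motif and an octamer were rare everywhere, at most 0.959% (55 of 5734 YY1 windows at co-occupied distal sites). Among the YY1 windows of that class with a YY1 motif, however, 55 of 285 held an octamer, against 6.17% of all its YY1 windows. Among its OCT4 windows with a YY1 motif, 47 of 109 held one, against 9.71% of all. At co-occupied promoters 6 of 815 YY1 windows with a YY1 motif held one, against 0.964% of all. No share expected from the separate motifs was computed.

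**Figure D4:**
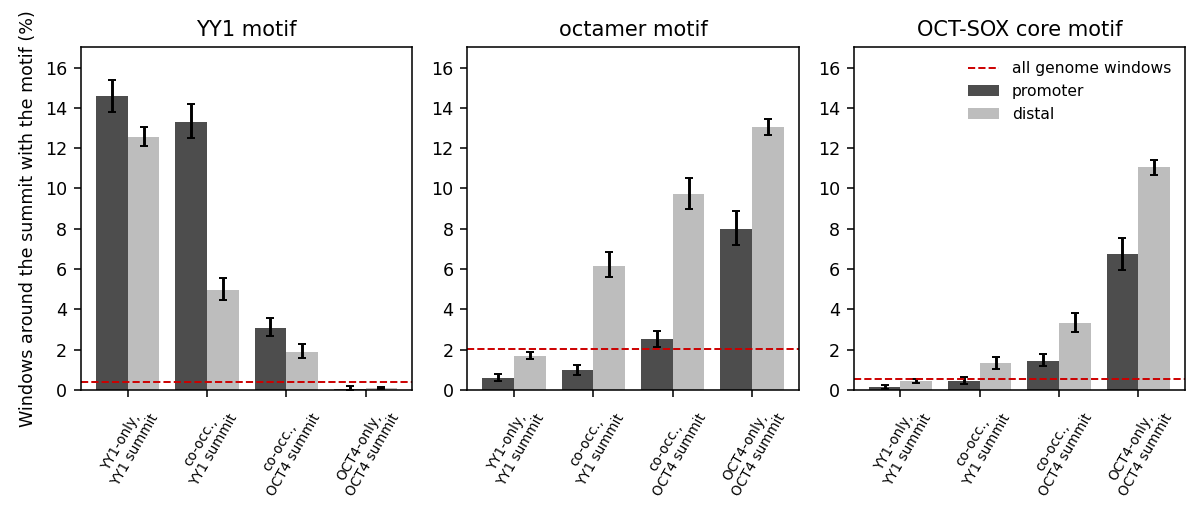
Percent of 201 bp windows with the YY1 motif, the octamer and the OCT-SOX core (y axis) by occupancy class and window centre (x axis), at promoter and distal sites, with Wilson 95% intervals as error bars and the share of all genome windows as a dashed line. The YY1 motif falls from left to right, and the octamer and the OCT-SOX core rise.

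Repressive chromatin was rare at promoter sites. H3K9me3, the histone mark of silenced repeats, was available from 2 libraries of the same untreated cells, whose peaks covered 6.34% and 6.37% of the genome. Peaks of both overlapped 2.88% of YY1-only, 2.06% of co-occupied and 2.70% of OCT4-only promoter sites. At distal sites the shares were 14.5%, 14.7% and 9.51%. The median widths of these distal sites were 564, 915 and 365 bp, and a wider site has more room to touch a peak. The genome coverage is a share of bases in 1 library, so that it is no direct background for these shares.

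The strongest single sites were named by a fixed rank, the 5 highest of each class. Among YY1-only promoters they were those of CXXC1, which encodes a CpG-binding subunit of a histone methyltransferase complex, with fold enrichments of 175 and 160, CCDC174 (142 and 142), the proteasome subunit gene PSMB5 (143 and 139), ZNF615 (159 and 134) and POGLUT1 (151 and 134). The class holds no OCT4 peak by definition, and ranking by the lower replicate favours sites where both replicates are high. Their genes ranged from 4.19 TPM for the zinc finger gene ZNF615 to 145 TPM for PSMB5. The ZNF615 site also overlapped H3K9me3 peaks of both libraries.
The strongest YY1-only distal sites lay 6042 bp from GNG13 (137 and 125) and 8038 bp from BAK1, an effector of apoptosis (111 and 105). The others lay near SPACA5 and near the lncRNA genes ENSG00000203402 and ENSG00000231612, with YY1 values between 75.9 and 122. GNG13 had at most 0.156 TPM and SPACA5 was listed at 0 TPM in all 3 libraries, while BAK1 had 34.4, 31.3 and 27.5 TPM.

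The co-occupied promoters of the rank included those of PCDHB5, a protocadherin (YY1 34.9 and 48.3, OCT4 34.9), DUSP12, a phosphatase (34.3, 39.5 and 36.7), CHFR, a mitotic checkpoint ubiquitin ligase (69.7, 105 and 32.8), and ENSG00000284691 (31.6, 32.8 and 31.6). The YY1 window of CHFR held the YY1 motif, and the OCT4 windows of PCDHB5 and DUSP12 held the OCT-SOX core.
The strongest co-occupied distal sites included 3 with H3K9me3 peaks of both libraries, at chr2:92322762-92326171, chrX:61718284-61720037 and chr17:22258032-22258831, between 54290 and 278683 bp from the nearest TSS, all of them pseudogenes. Their YY1 and OCT4 values were alike, for example 67.2, 70.3 and 81.3 on chromosome 2. These stretches lie next to centromeres. The other 2 were the site on chromosome 10 shown above (73.6, 98.4 and 33.8) and one on chromosome 19 at 34057236 to 34058813 (64.3, 84.9 and 35.2).

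Among OCT4-only promoters the first was that of REST, a repressor of neuronal genes, with an OCT4 value of 77.2 and 17.8, 20.5 and 18.2 TPM. It was followed by GIMAP5 (64.8), an immune gene at 0.0652 TPM or less, the lncRNA gene ENSG00000286558 (60.7), PHLDB2 (60.6) and SNRPN (58.7). SNRPN, an imprinted gene for a splicing protein, had 658, 618 and 595 TPM. The OCT4-only promoters thus included both weakly and strongly expressed genes.
The strongest OCT4-only distal sites lay near MPC1, a mitochondrial pyruvate carrier subunit (91.0, at 4377 bp), LINC00461 (81.0), ENSG00000287719 (77.3), LINC02464 (73.4) and CDC16, a subunit of the anaphase-promoting complex (70.0, at 6575 bp). Their windows held the OCT-SOX core in 3 of 5 cases, those of MPC1, LINC02464 and CDC16.

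Most pluripotency genes had peaks of both factors. The strongest YY1 peak of a gene was taken within 1000 bp of a TSS, and the strongest OCT4 peak within 50 kb. That the 2 often lay in different sites is therefore partly set by this choice. Here and below, a gene counts as having YY1 in both replicates when a single merged site within 1000 bp of a TSS holds both. The list holds 28 genes, of which 20 had YY1 in both replicates within 1000 bp of a TSS and 21 had OCT4 there, or 71.4% and 75%. The shares over all protein-coding genes were 52.2% and 39.5%, and over those with at least 1 TPM in every RNA library, as 24 of the 28 had, 73.9% and 55.2%. The YY1 share was thus close to that of expressed genes, and the OCT4 share above it. A co-occupied site was at 17 of the 28, against 28.5% of all and 42.3% of expressed protein-coding genes. OCT4 lay within 50 kb of 27 of the 28, against 84.6% of protein-coding genes. The 28 members were chosen with earlier results of these data known, and genes share neighbourhoods, as with DPPA2 and DPPA4 or LEFTY1 and LEFTY2.
SOX2, a core pluripotency factor, had 19 OCT4 sites within 50 kb. The strongest, 2832 bp from a TSS of the gene, had an OCT4 value of 68.5 and YY1 values of only 5.96 and 3.49, while YY1 was stronger (13.0 and 8.30) at a separate promoter site. NANOG showed the same order at its promoter, with OCT4 at 53.1 and YY1 at 6.21 and 5.66. TRIM71, an RNA-binding repressor of differentiation, had an OCT4 site of 64.8 with YY1 at 7.68 and 7.74.
At other members the YY1 site at the promoter was strong. That of DPPA4, a chromatin factor of pluripotent cells, had YY1 at 57.9 and 55.3, LIN28B, an inhibitor of let-7 processing, had 35.1 and 45.5, DNMT3B, a DNA methyltransferase, 33.3 and 28.9, and TERF1, a telomere protein, 30.6 and 38.5. These were promoter sites that also held OCT4. The strongest OCT4 value within 50 kb was 26.6 for DPPA4, 10.6 for LIN28B, 7.42 for DNMT3B and 34.1 for TERF1, and each of these OCT4 maxima lay away from the YY1 promoter site. The YY1 and OCT4 values come from different libraries of unknown depth and from unlike search distances, so that their order does not rank the occupancy of the factors. SALL4, a zinc finger factor, had its maxima in a single co-occupied site (YY1 22.3 and 21.6, OCT4 15.5). L1TD1 had YY1 at 64.1 and 70.1 with OCT4 at 25.7 in a site 10941 bp from its TSS. At its promoter YY1 was lower (12.9 and 17.4).

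Several pluripotency genes had OCT4 nearby without YY1 in both replicates at a promoter. Neither YY1 replicate had a promoter peak at LEFTY2, NODAL, DPPA3 and DPPA5, and 1 of the 2 had one at FGF4, DPPA2 and TRIM71. DPPA5 had an OCT4 value of 53.7 at 4010 bp and an expression of 2.55, 1.41 and 1.67 TPM. LEFTY2, an inhibitor of NODAL signalling, had an OCT4 value of 38.0 at 40314 bp and 1.33, 1.83 and 0.967 TPM. NODAL itself had 7.48 at 45992 bp and 0.494, 0.0946 and 0.201 TPM. A strong OCT4 peak nearby went with expression from low levels, as for FOXD3 (OCT4 30.9, at most 0.328 TPM), to high levels, as for SOX2 (371, 352 and 319 TPM).
Other members had YY1 at a promoter and OCT4 within 50 kb. Their strongest OCT4 values were 8.25 for KLF4, 8.73 for ZSCAN10, 12.1 for ZFP42, 14.8 for TDGF1, 17.8 for TFAP2C, 18.3 for PRDM14, 21.5 for OTX2, 28.2 for LIN28A, 31.3 for UTF1 and 38.0 for LEFTY1. LIN28A was the one of them without OCT4 within 1000 bp of a TSS.

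POU5F1, which encodes OCT4, had no peak of either factor within 50 kb at 250, 190 and 178 TPM, but the stretch of chromosome 6 around it held almost no peaks at all. Between 28457222 and 33464795, a stretch of 5.01 Mb that includes the major histocompatibility complex, neither YY1 library had a peak, out of 3466 and 5007 on the chromosome, and OCT4 had 3 of 3574. The stretch holds 184 protein-coding genes, of which 65 had at least 1 TPM in every RNA library. H3K9me3 had 21 and 15 peaks in it. The 3 lists together also have 22 peaks on alternative haplotype contigs of hg19, and whether reads were lost to such contigs was not tested. Occupancy at POU5F1 and at RING1, RPS18 and MRPS18B of the lists below was therefore not measurable here.

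YY1 was at most promoters of genes for the translation and respiration machinery. Of 81 cytosolic ribosomal protein genes 75 had YY1 in both replicates (92.6%), of 78 mitochondrial ribosomal protein genes 69 (88.5%), and of 82 respiratory chain genes 70 (85.4%). The background is 52.2% of all protein-coding genes and 73.9% of those with at least 1 TPM in every RNA library. OCT4 was at 52 (64.2%), 41 (52.6%) and 29 (35.4%), against 39.5% and 55.2%. Set against the expressed genes, the YY1 share was higher in all 3 lists, while the OCT4 share was higher for cytosolic ribosomal proteins, slightly lower for mitochondrial ribosomal proteins and lower for the respiratory chain. A co-occupied site was at 52, 38 and 26 of the genes, where the background is 28.5% of all and 42.3% of expressed protein-coding genes.
With peaks at a −log10 q of at least 5 the OCT4 counts fell to 29 (35.8%), 27 (34.6%) and 17 (20.7%), against 26.0% of all and 36.8% of expressed protein-coding genes, so that the OCT4 share of cytosolic ribosomal protein genes was no longer above that of expressed genes. The YY1 counts were then 72 (88.9%), 68 (87.2%) and 63 (76.8%), against 44.6% and 64.0%. Among ribosomal protein genes RPL13A had the strongest YY1 site (148 and 125), with 4013, 3438 and 3788 TPM, followed by RPL12 (109 and 111). MRPL52 (103 and 122), MRPL36 (111 and 83.9) and MRPS15 (79.5 and 85.7) led the mitochondrial ribosomal proteins. The complex I gene NDUFA13 (105 and 100) was among the strongest of the respiratory chain and had no OCT4 at its promoter. MRPL36 and NDUFS6 share 1 site.

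YY1 also bound its own gene. The YY1 promoter had YY1 at 122 and 109 and the gene 44.5, 46.1 and 48.1 TPM, and OCT4 had a peak at the promoter as well. Of 20 genes of the YY1 family and its partners 17 had YY1 at a promoter (85%) and 13 OCT4 (65%), against 73.9% and 55.2% of expressed protein-coding genes. High values were found at HCFC1, a chromatin adaptor (94.5 and 89.4), at the cohesin genes STAG2 (98.3 and 54.0), SMC3 (68.8 and 75.6) and RAD21 (50.9 and 49.8), and at INO80, the ATPase of a remodelling complex that contains YY1 (59.1 and 49.3). RYBP, a Polycomb protein, had the strongest OCT4 site of the list, 31.1 at 30956 bp. The members without YY1 in both replicates were BAP1, YY2 and RING1, the last within the empty stretch of chromosome 6.

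Of 18 mitotic genes 14 had YY1 at a promoter (77.8%), close to the 73.9% of expressed protein-coding genes. TOP2A and MAD2L1 had promoter peaks of both YY1 replicates but in separate sites, and with either replicate left out the count was 16. OCT4 was at 7 (38.9%), close to the 39.5% of all protein-coding genes and below the 55.2% of expressed ones. NDC80, a kinetochore subunit, had the highest YY1 values (89.1 and 97.3), followed by the kinase gene AURKA (46.3 and 53.4), which had no OCT4 at its promoter. BUB1, a spindle checkpoint kinase, had no YY1 at its promoter. It had the strongest OCT4 site of the list (39.2, at 9490 bp), and that site also held YY1 (18.3 and 24.2).
Among 16 germ layer factors 10 had YY1 (62.5%) and 8 OCT4 (50%) at a promoter, against 52.2% and 39.5% of all protein-coding genes, and 4 of the 16 had at least 1 TPM in every library. SOX1, a neural factor, had YY1 at 13.6 in both replicates with 0.0988 TPM or less. CDX2, a trophoblast and gut factor, had an OCT4 site of 26.6 at 356 bp with YY1 at its promoter (8.65 and 6.27) and at most 0.960 TPM.
Of 39 HOX cluster genes 19 (48.7%) had YY1 and 12 (30.8%) OCT4 at a promoter, shares close to or below those of all protein-coding genes. HOXA2 had the strongest YY1 site (31.5 and 33.9) at 0.0657 TPM or less. YY1 peaks were thus found at promoters of genes with little RNA too. HOXA2 and SOX1 had lower values than the ribosomal protein genes named above, which lead their lists. Other ribosomal protein genes had lower values still, such as RPS20 (7.27 and 4.65) and RPS10 (4.32 and 4.33).

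Genes with YY1 at a promoter were expressed at a higher level than genes with OCT4 alone. For protein-coding genes the median in the 3 RNA libraries was 14.0, 14.3 and 13.8 TPM with a YY1-only promoter (4047 genes) and 1.40, 1.31 and 1.296 TPM with an OCT4-only promoter (625 genes). Genes with both factors at a promoter were highest, at 21.9, 22.7 and 21.98 TPM (6415 genes), and those without any peak lowest, at 0.0713, 0.0823 and 0.0805 TPM (6291 genes). These are medians over genes, which are not replicates, and the RNA libraries give only the error of the measurement.
Over all genes with a TPM value, the median log2(TPM + 1) was higher by 2.99 ± 0.05 (SD, n = 3) with a YY1-only than with an OCT4-only promoter, and the direction held in 3 of 3 libraries. The difference was 1.70 without YY1 replicate 1 and 2.09 without YY1 replicate 2, as each single replicate moves genes between the classes. It was 1.67 among genes with a mean of at least 0.5 TPM. The share of protein-coding genes with at least 1 TPM in every library was 82.1% with a YY1-only, 91.8% with a shared and 49.9% with an OCT4-only promoter.

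Expression was ordered by the strength of the YY1 promoter peak, and no such order was seen for OCT4. In quintiles of the protein-coding genes by the fold enrichment of the strongest promoter peak, the median fell from 29.0 ± 0.56 TPM (SD, n = 3) with the strongest YY1 peaks through 24.4, 18.2 and 14.6 to 12.2 ± 0.23 TPM with the weakest. For OCT4 the quintiles were 17.8 ± 0.43, 18.9, 19.7, 17.4 and 17.1 ± 0.24 TPM. Most OCT4 promoters counted here also held YY1.

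Genes nearest to distal sites differed little. The median log2(TPM + 1) was higher by 0.23 ± 0.01 (SD, n = 3) for genes nearest to YY1-only than to OCT4-only distal sites. The classes overlapped, since 6734 genes were nearest to sites of both kinds, 48.2% of the first and 43.6% of the second. With protein-coding TSSs only, the difference was 0.012, and it turned to -0.015 among genes with a mean of at least 0.5 TPM and to -0.054 without YY1 replicate 1. It was 0.65 without YY1 replicate 2.
Genes nearest to co-occupied distal sites were higher than both, by 0.86 ± 0.01 over OCT4-only and by 0.63 ± 0.01 over YY1-only distal sites, each in 3 of 3 libraries. For protein-coding genes the medians were 9.42, 10.4 and 10.0 TPM near co-occupied, 6.76, 7.22 and 6.87 TPM near YY1-only and 6.66, 7.13 and 6.86 TPM near OCT4-only distal sites.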

How the data were processed

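YY1 (2 libraries) and OCT4 (1 library) ChIP-seq of SCi-NCCITs without doxycycline were compared. According to the methods of the study, the authors removed adapters (TrimGalore!), mapped ChIP-seq reads to hg19 by BWA MEM, discarded duplicates and reads with a mapping quality of 10 or less, and used an FDR of 5% for peaks. The peak caller and its version are not given in the sources used here. In the deposited lists each peak has a fold enrichment, which is a ratio, and p- and q-values written as −log10. RNA-seq was deposited as kallisto output, TPM and estimated counts of each transcript. The estimated counts summed to 15305909, 33286581 and 45295427 and were used for depth only. TPM was summed per gene of GENCODE v44lift37, which assigned 166506 of 188753 transcripts (36084 genes). ChIP depth is unknown.

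Peaks were used as called. They were merged at 1 bp of overlap, and a site was a promoter site within 1000 bp of any TSS of the annotation. This release is not stated to be the one used by the authors. Motifs were exact matches within 100 bp of the summit in GRCh37. For YY1 and co-occupied sites the YY1 summit is that of the replicate with the higher fold enrichment. The pseudocount was 1 TPM. Intervals are Wilson 95% intervals. Named sites were the 5 of highest fold enrichment per class (the lowest value over the libraries concerned, chromosomes 1 to 22, X and Y), and named genes the leading members of lists, plus the pluripotency genes. A few of the genes and sites so chosen are not reported here. Members, lists and classes were chosen with earlier results of these data known. The exact permutation test over libraries was two-sided, and no other test was run. Of 2 H3K9me3 lists only overlaps were used.

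The alternatives were stricter peaks, lists of equal length, other definitions of overlap and promoter, other TSS sets, pseudocounts, TPM filters and windows, and leaving out each library. Merging, overlap, nearest TSS and motif search were tested on simulated data against bedtools 2.31.1 or direct search. Python 3.11.15, numpy 2.4.6, pandas 2.3.3, scipy 1.17.1 and matplotlib 3.10.9 were used. A table of YY1 HiChIP contacts was not used, as 16 columns of per-sample values were not assigned to samples.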

Additional observations from a re-analysis of the deposited data

How the results depend on the processing

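The direction held in every alternative run for the promoter share, for the expression of genes with YY1-only against OCT4-only promoters and for both motif differences. Expression was not recomputed with stricter peaks, lists of equal length or other definitions of sharing, and the motif differences only without each YY1 library and with the shorter window. Median width, YY1 minus OCT4, was 52.5 bp and ranged from -17 to 122 bp when 1 YY1 library was left out. Median fold enrichment, YY1 minus OCT4, was -0.377 and turned to 0.414 with lists cut to 50775 peaks. Sites with YY1 rose from 39593 to 89092 with YY1 in either replicate, and to between 56064 and 75247 when 1 YY1 library was left out, where a single list decides. Co-occupied sites were 18513 with YY1 in either replicate, 7020 at a −log10 q of at least 5 and 5868 with summits within 200 bp.

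The median log2(TPM + 1) difference between YY1-only and OCT4-only promoters (2.99) was between 1.70 and 3.02 when 1 YY1 or RNA library was left out, 2.68 with protein-coding TSSs, 4.34 with a pseudocount of 0.1 and 1.67 among genes of at least 0.5 TPM. That of the nearest genes of distal sites (0.23) ranged from -0.054 to 0.65 when 1 library was left out, and was 0.012, 0.51 and -0.015 under those settings in turn and 0.27 within 50 kb. The share of sites with the YY1 motif, YY1-only minus OCT4-only, was 13.0 percentage points, between 8.72 and 10.4 without 1 YY1 library and 10.9 with windows of 50 bp each side. That of the octamer, OCT4-only minus YY1-only, was 11.0, between 10.2 and 10.8 without 1 YY1 library and 7.98 with those windows. Beyond the settings' own construction, the causes were not tested. Leaving out the genes in the empty stretch of chromosome 6, chosen after seeing the data, gave 2.99 and 0.23.

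No paired analysis was possible because the peak comparisons set 2 YY1 libraries against a single OCT4 library, and the RNA libraries belong to 1 condition. Unknown ChIP depth limits the comparison of peak numbers, widths, fold enrichments and weak peaks, and an absent peak is not an absent factor.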
